A study of Mus musculus with 9 samples.

Results

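In mouse muscularis externa (ME), which forms the outer muscle coat of the bowel and houses the myenteric ganglia, 115 transcripts of 101 genes had group means ordered control, then 3 h, then 24 h after intestinal manipulation, each group above the one before. These members were chosen from the 502 transcripts of 444 genes in a table of changed genes deposited by the authors, by that order alone, after 26 named genes had been set aside. Of the names set aside, 14 genes with 17 transcripts also had the order, so 132 of 502 transcripts had it, or 26.3% of the table. The rest of the table held 94 transcripts above control at both times but higher at 3 h, 179 below control at 3 h and above it at 24 h, 52 above at 3 h and below at 24 h, and 45 below at both times. Because the order of the 3 group means chose the members, all of their levels and fold differences are descriptions and carry no test.

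The study models postoperative ileus, a standstill of the bowel after an operation, with intestinal manipulation (IM) of BL6 mice, in which the exposed small bowel is rolled between moist cotton swabs. ME of the small intestine was taken from mice of 8-12 weeks, and each of 3 groups has 3 libraries, namely controls, tissue at 3 h after IM (IM3h) and tissue at 24 h after IM (IM24h). Labels call the controls sham operated, and the tables and the study's text name them naive, a difference that could not be settled. No transgene and no drug was given in any of these groups as labelled, and no label says if libraries stem from separate mice. Library numbers fall into 2 series, 1 for IM3h and 1 for the other 6 libraries, and what may differ between them cannot be told apart from the 3 h interval.

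The deposited values are 1 authors' mean of normalized counts per transcript and group, and each total equalled 3 times the sum of the 3 means. Values per library were not analysed here, so the depth of a library and the spread between libraries are unknown, no p-value is given, and whether single libraries of 2 groups overlapped cannot be told. Every pair of group means in the table differed by a factor of at least 2.0003, so a member stepped up at least 2-fold between control and 3 h and again between 3 h and 24 h by the make-up of the table. Member totals over the 9 libraries ran from 13.1 to 821 normalized counts with a median of 56.9, beside 46.5 for the whole table. In 55 of the 115 transcripts the control mean was under 1 normalized count, and folds of these rest on few counts. Means were not scaled to transcript length here, so levels are not compared between genes. In bulk tissue, more cells of a type and more RNA per cell cannot be told apart.

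Handling of the bowel wall activates resident macrophages and is followed by the entry of monocytes and neutrophils into the muscle layer. Myeloid cells are steered by paired receptors on their surface, which carry either inhibitory or activating cytoplasmic motifs, and by Src family kinases and adaptor proteins that pass these signals on. Complement fragments and chemokines draw such cells in, while interferon-inducible proteins and lysosomal enzymes belong to their response to microbes and debris.

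Of 49 marker genes listed for 11 cell types of the bowel wall, 8 stood in the deposited tables, which hold selected transcripts, so the tissue label could not be checked against them. None of the listed markers of smooth muscle, neurons, interstitial cells of Cajal, endothelium, mesothelium, neutrophils, mast cells or lymphocytes was among the 8. The summed means of 5 enterocyte markers were 224 in control, 485 in IM3h and 63.4 in IM24h, a different order from that of the members, and the part of epithelial RNA in the members' values was not tested. Csf1r, the receptor of macrophage colony-stimulating factor, had means of 20.6, 7.52 and 74.6 and thus was lower at 3 h than in control. Itgax, the other macrophage and monocyte marker present, is a member.

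Promoter sequences show which recognition letters stand close to the starts of these genes. RefSeq windows on GRCm38.p6, each with 250 bases before and 50 after a start, were found for 75 of the 101 genes, giving 94 windows beside 32851 windows of all genes. Both strands were searched for 10 patterns. The letters GAGGAAGT, a site of the ETS factor PU.1 that is needed for myeloid development, were in 8 member windows (8.51%) and in 3.20% of all windows. These 8 windows belonged to Apobr, Bcl2a1b, Cd300lf, Cd53, Cd72, Ctss, Fhl3 and Pirb. Stretches are shown for 4 genes of leukocytes in which a match lay wholly before the annotated start. These are the inhibitory receptors Pirb and Cd72, the survival gene Bcl2a1b and the lipoprotein receptor Apobr. In Cd300lf, Cd53 and Ctss no match lay wholly before the start, so no stretch is shown for them. Fhl3, a LIM protein of muscle, also had a match wholly before the start, 14 bases from it, and its stretch is not shown. Capitals mark the 8 letters or, in Cd72, their reverse complement, and each stretch reads 5′ to 3′ on the strand of the gene.
Pirb, chr7:3720455-3720542, - strand: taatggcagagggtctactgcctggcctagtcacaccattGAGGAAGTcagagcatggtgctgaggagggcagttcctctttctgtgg
Bcl2a1b, chr9:89199085-89199172, + strand: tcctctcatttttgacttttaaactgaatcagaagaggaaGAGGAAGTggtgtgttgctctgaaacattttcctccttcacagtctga
Cd72, chr4:43454628-43454715, - strand: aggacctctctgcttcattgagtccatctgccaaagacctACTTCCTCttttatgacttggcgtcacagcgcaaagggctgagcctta
Apobr, chr7:126584885-126584972, + strand: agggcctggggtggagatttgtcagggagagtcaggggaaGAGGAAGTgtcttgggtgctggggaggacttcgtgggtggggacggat
The matches ended 112, 140, 41 and 75 bases before the annotated start in that order.

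The interferon-stimulated response element, searched as GAAANNGAAA, was in 6 member windows (6.38%) and in 3.44% of all windows. It stood in Ctss, Cytip, Ifi207, Jaml, Slamf8 and Srgn, and only Ifi207 of these was placed on the list of interferon genes. The match is shown for Ctss, a lysosomal protease, for Ifi207, an interferon-inducible protein, and for the leukocyte surface proteins Jaml and Slamf8, with the element or its reverse complement in capitals.
Ctss, chr3:95526725-95526785, + strand: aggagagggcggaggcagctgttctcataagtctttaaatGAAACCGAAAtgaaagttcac
Ifi207, chr1:173741810-173741890, - strand: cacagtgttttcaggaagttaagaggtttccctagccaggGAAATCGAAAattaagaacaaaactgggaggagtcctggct
Jaml, chr9:45079107-45079182, + strand: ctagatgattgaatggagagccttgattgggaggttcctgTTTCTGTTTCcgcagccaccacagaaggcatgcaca
Slamf8, chr1:172590569-172590623, - strand: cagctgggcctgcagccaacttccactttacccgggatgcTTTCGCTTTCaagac
Ctss was found in both sets of genes, but a gene can have several windows, and the stretch shown does not hold the 8 ETS letters.

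Of the remaining patterns, the shorter ETS core GAGGAAG or GAGGAAC, which contains the 8 letters above, was in 24.5% of member windows and 18.05% of all windows. For NF-kB, GGGANNNNCC was in 28.7% and 20.7%, and the kappaB consensus, which overlaps with it, was in 16.0% and 8.46%. AP-1 sites (TGANTCA) were in 11.7% and 7.81%, and TATAAA was in 17.0% and 13.6%. STAT sites (TTCNNNGAA) were in 7.45% and 8.30%, C/EBP sites (TTGCNNAA) in 9.57% and 10.8%, and the CArG box of serum response factor in 1.06% and 1.63%. These shares are counts of letters in windows, several of which can belong to 1 gene, and no test was made of them.

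Both steps were seen in every member because the rule asked for them. The median member was 2.70-fold above control at 3 h (log2 ratio 1.43) and 10.4-fold above control at 24 h (log2 ratio 3.38), with ranges of 2.001 to 20.6-fold and 4.24 to 183-fold. Between 3 h and 24 h the median ratio was 3.32 (log2 ratio 1.73), with a range of 2.002 to 17.8. Over all 502 transcripts of the table the median log2 ratios were 1.09, 1.38 and 1.81 for the same 3 comparisons. At 24 h 74 of 115 member transcripts (64.3%) were at least 8-fold above control, beside 20.9% of the table. At 3 h 28 of 115 (24.3%) were at least 4-fold above control, beside 27.5% of the table. The rule used these contrasts, so nothing is read from either pair of shares. Among 132 transcripts that stand in the authors' table of gliosis genes alone, the median was itself 0.15 above control at 3 h and 0.77 above it at 24 h on the log2 scale, and relative to these medians the members' own were 1.29 and 2.61.

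Timing was expressed as the percent of the log2 distance from control to IM24h that the IM3h mean had already covered. Its median over the members was 47.1%, from 25.8% in Ms4a6c to 75.3% in Steap1, and it was over 50% in 42 of 115 transcripts. With 1 added to every mean the median was 41.6% and 22 were over 50%. With the groups centred on the transcripts of the gliosis table alone the median was 58.7% and 79 were over 50%. Those transcripts were themselves 0.15 above control at 3 h and 0.77 at 24 h in median log2 ratio, which raises the share by construction. On the linear scale the share covered at 3 h had a median of 23.3%, and none of the 115 was over 50%. In 61 of the 101 genes both steps were within 1.5-fold of each other.

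**Figure D1:**
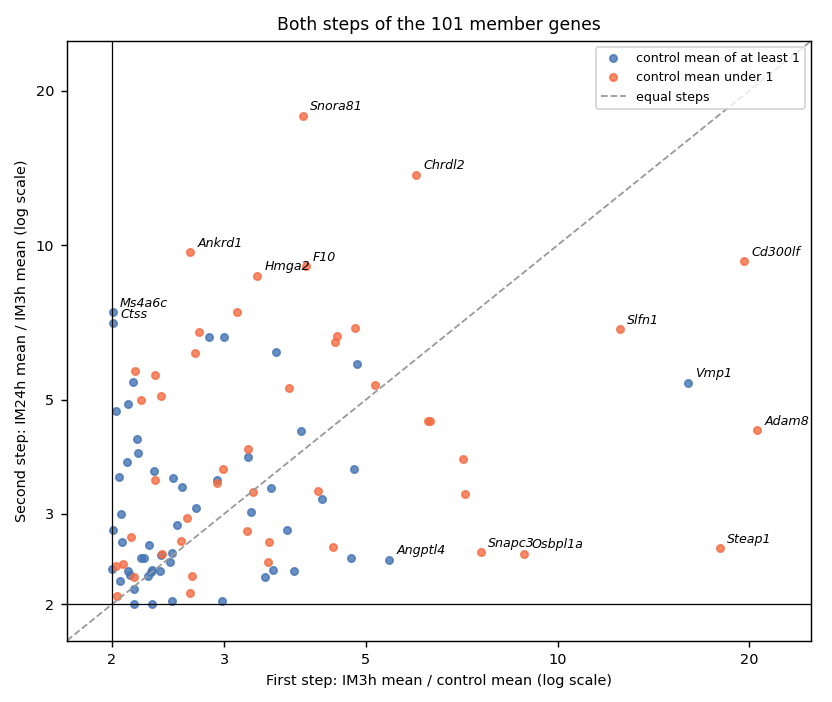
First step (IM3h mean over control mean, x axis) against second step (IM24h mean over IM3h mean, y axis) of the 101 member genes by their transcript with the largest total, both as fold on log scales; orange points have a control mean under 1, black lines mark 2-fold and the dashed line equal steps. All points lie above 2-fold on both axes, Adam8 and Cd300lf lie farthest to the right at 20.6 and 19.6, and Snora81 and Chrdl2 highest at 17.8 and 13.7, all of these with control means under 1.

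Farthest along at 3 h was Steap1, a membrane protein of the metalloreductase family, with means of 0.341 in control, 6.13 at 3 h and 15.8 at 24 h, or 75.3% of its log2 distance. Osbpl1a, an oxysterol-binding protein relative, followed at 70.3% with means of 0.590 in control, 5.23 at 3 h and 13.1 at 24 h, although another transcript of it had the opposite order. Snapc3, a subunit of the complex that starts transcription of small nuclear RNA genes, stood at 68.6% with 0.220 in control, 1.66 at 3 h and 4.20 at 24 h. In these 3 the control mean was under 1, and adding 1 to every mean lowered the log2 ratio at 3 h to 2.41 in Steap1, 1.97 in Osbpl1a and 1.13 in Snapc3. Adam8, a metalloprotease of leukocytes, stood at 67.2% with 0.0929 in control, 1.91 at 3 h and 8.35 at 24 h, the lowest control mean of all members, and adding 1 lowered its log2 ratio at 3 h from 4.36 to 1.41 and its share to 45.6%. Angptl4, a secreted inhibitor of lipoprotein lipase, covered 65.5%, with 2.99 in control, 16.3 at 3 h and 39.8 at 24 h.

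The 5 members with the smallest share at 3 h were Ms4a6c, Ctss, Ankrd1, Ifi209 and C3ar1, at 25.8%, 26.3%, 30.1%, 30.9% and 31.2%. With 1 added to every mean Snora81 was lowest at 20.1%, and Ankrd1 and Ifi209 followed at 20.7% and 22.7%. Among them, Ms4a6c, Ctss and C3ar1 were only just over 2-fold above control at 3 h (2.004, 2.01 and 2.03) and 14.8, 14.1 and 9.63-fold above it at 24 h. At the boundary of the rule, Xdh had the smallest first step, 2.001-fold, and the nearest transcript outside, Arrdc4, had an IM3h mean of 0.626 beside a control mean of 1.26. For the second step Ipo7 was the nearest inside at 2.002-fold, and Pvr the nearest outside, with 73.8 at 3 h and 36.8 at 24 h.

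**Figure D2:**
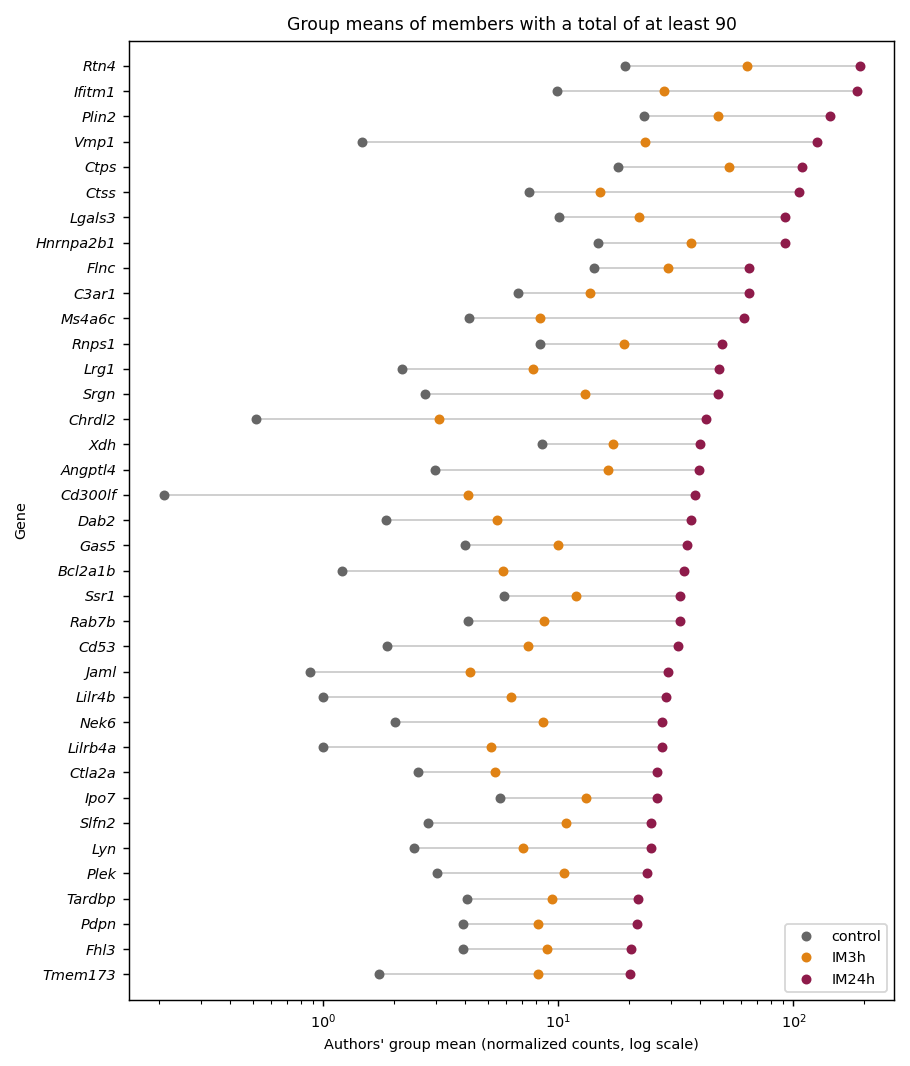
Authors' group means in normalized counts (x axis, log scale) of 37 of the 38 member genes with a total of at least 90, ordered by IM24h mean (y axis); grey points are control, orange IM3h and purple IM24h, without error bars because 1 mean per group was available. Rtn4 is highest at 191 in IM24h, and the grey points of Cd300lf, Chrdl2, Jaml, Lilr4b and Lilrb4a lie under 1.

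Members were described by 14 lists of 307 genes in all, drawn up with earlier results of these data known, so their counts are no independent evidence. Of these genes 111 were in the deposited tables, 98 as members and 13 with another order or among transcripts outside the table of changed genes. The list medians of the log2 share covered at 3 h ran from 35.7% for lysosome, endocytosis and granule genes to 56.7% for interferon-inducible genes. With 1 added to every mean the lysosome list was still the lowest at 33.0%, whereas the interferon list stood at 38.1%, below the metabolism list at 47.05% and others. As deposited, in every list but that of cell survival the single genes were spread over a wider range than these medians.

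**Figure D3:**
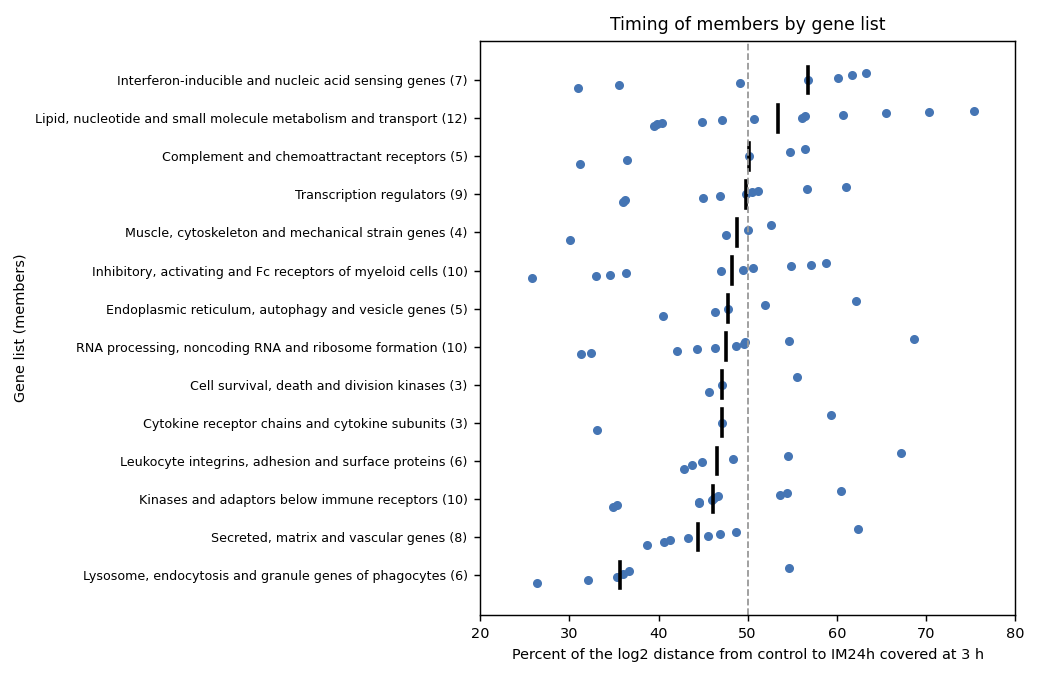
Percent of the log2 distance from control to IM24h covered at 3 h (x axis) for the 98 listed member genes, by gene list (y axis, number of members in brackets); each point is a gene, the black bar the list median and the dashed line 50%. Medians run from 35.7% to 56.7% with no pseudocount, and the lists overlap.

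Of 31 listed inhibitory, activating and Fc receptors of myeloid cells, 10 were in the tables and all 10 were members, with a median log2 ratio to control of 1.55 at 3 h and 4.05 at 24 h and with 7 control means under 1. This 24 h median was the largest of the 14 lists, but with 1 added to every mean it was 3.05, below those of the lysosome list (3.37) and the survival list (3.24). Cd300lf, an inhibitory receptor for membrane lipids, had means of 0.209 in control, 4.11 at 3 h and 38.3 at 24 h, 183-fold above control at 24 h and the largest fold of any member. With 1 added to every mean it was 32.5-fold, and Vmp1 was the largest at 51.6-fold. The Cd300lf values are of 1 transcript, the only one listed of 3 curated. Of the 50-base words in its last 500 bases, 100% also occur in 2 other transcripts of the gene and 3.77% in other genes. The change of the whole Cd300lf gene was not measured. Ms4a6c, a membrane-spanning protein of myeloid cells, had 4.16 in control, 8.34 at 3 h and 61.8 at 24 h. Lilr4b and Lilrb4a, an activating and an inhibitory receptor of the leukocyte immunoglobulin-like family, lie next to each other. Lilr4b had 0.994 in control, 6.27 at 3 h and 28.6 at 24 h, and Lilrb4a had 0.995 in control, 5.15 at 3 h and 27.6 at 24 h. Their folds were 6.31 and 5.18 at 3 h and 28.8 and 27.7 at 24 h. However, 42.6% of the 50-base words in the last 500 bases of the Lilr4b transcript also occur in other genes. The end of the Lilrb4a transcript with these values was not examined. In the other Lilrb4a member transcript 100% of such words occur in other genes, so reads could be shared between Lilr4b and Lilrb4a. The remaining 6 receptors were between 5.97-fold (Cd72, an inhibitory receptor known from B cells) and 23.2-fold (Clec4n, a lectin for fungal mannans) above control at 24 h. They include Pirb and Fcgr2b, which both inhibit signalling, at 18.6-fold and 7.23-fold, Milr1, an inhibitory receptor of mast cells, at 13.01-fold and Slamf8 at 8.50-fold.

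Kinases and adaptors that act below such receptors were 10 of 26 listed genes in the tables, again all members, with median log2 ratios of 1.71 and 3.63. Plek, a substrate of protein kinase C in blood cells, had means of 3.05 in control, 10.6 at 3 h and 23.9 at 24 h, and 60.4% of its log2 distance was covered at 3 h. Lyn, a Src family kinase that phosphorylates both inhibitory and activating receptors, had 2.42 in control, 7.09 at 3 h and 24.7 at 24 h. Sla, an adaptor that dampens receptor signalling, had 0.837 in control, 3.75 at 3 h and 24.3 at 24 h and with 29.02-fold the largest ratio of the list. The adaptors Lat2 and Lcp2 were 12.6-fold and 12.1-fold above control at 24 h, and Pik3r5, a regulatory subunit of phosphoinositide kinase gamma, 19.99-fold. Cytip, Rin1 and Snx20 lay between 6.06-fold and 13.1-fold, and 7 of the 10 had control means under 1.

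Receptors for complement fragments and chemokines comprised 5 members of 16 listed genes. C3ar1, the receptor of the anaphylatoxin C3a, had means of 6.70 in control, 13.6 at 3 h and 64.6 at 24 h and the largest total of the 5. Both receptors of C5a lie side by side. C5ar1 had 1.37 in control, 5.17 at 3 h and 14.4 at 24 h. C5ar2, which does not couple to G proteins, had 0.524 in control, 1.75 at 3 h and 5.77 at 24 h. The pair was 10.5 and 11.01-fold above control at 24 h, and 34.1% of the end words of C5ar2 occur in other genes. Ccr1, a chemokine receptor of monocytes and neutrophils, had 0.621 in control, 3.88 at 3 h and 17.7 at 24 h, and was 6.26-fold above control at 3 h and 28.4-fold at 24 h.

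Among cytokine receptor chains and cytokine subunits 3 of 16 listed genes were members. Csf2rb, the beta chain of the receptor for granulocyte-macrophage colony-stimulating factor, had means of 0.599 in control, 4.25 at 3 h and 16.3 at 24 h and was 27.2-fold above control at 24 h. Il2rg, the gamma chain shared by several interleukin receptors, had 0.685 in control, 1.52 at 3 h and 7.58 at 24 h. Ebi3, a subunit of secreted heterodimeric cytokines, had 0.503 in control, 1.32 at 3 h and 3.89 at 24 h. All 3 had control means under 1. The other 3 listed genes in the tables, Csf1r, Il6ra and Osmr, were no members.

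Adhesion and surface proteins of leukocytes gave 6 members of 17 listed genes, with median log2 ratios of 2.03 and 3.96. Cd53, a tetraspanin of leukocytes, had means of 1.87 in control, 7.40 at 3 h and 32.2 at 24 h. Jaml, a junctional adhesion protein of leukocytes that cross epithelia, had 0.877 in control, 4.22 at 3 h and 29.1 at 24 h and was 33.2-fold above control at 24 h. Pdpn, podoplanin of lymphatic endothelium and activated fibroblasts, had 3.93 in control, 8.16 at 3 h and 21.6 at 24 h and the smallest fold of the list. Cd38, an NAD-consuming ectoenzyme, and Itgax, the integrin chain CD11c, were 8.73-fold and 13.97-fold above control at 24 h, and Adam8 89.9-fold. Cd44 was the listed gene with another order, higher at 3 h than at 24 h.

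Interferon-inducible and nucleic acid sensing genes had 7 members of 29 listed, and 4 of the 7 had covered over 50% of their log2 distance at 3 h. Ifitm1, a membrane protein that restricts viral entry, had means of 9.87 in control, 27.998 at 3 h and 185 at 24 h, with 35.6% covered at 3 h. Of 4 curated Ifitm1 transcripts only 1 is listed, and 11.8% of its end words also occur in other genes. Slfn2, a Schlafen protein needed for the quiescence of immune cells, had 2.78 in control, 10.7 at 3 h and 24.9 at 24 h. Its neighbour Slfn1 had 0.151 in control, 1.90 at 3 h and 13.01 at 24 h, 85.9-fold above control at 24 h from the second lowest control mean of the members. Tmem173, the STING adaptor of cytosolic DNA sensing, had 1.73 in control, 8.19 at 3 h and 20.2 at 24 h for the transcript with the larger total, and its second transcript had the same fold at 24 h but a first step larger by 0.28 on the log2 scale. Ifi207 and Ifi209, neighbouring genes of the interferon-inducible PYHIN family with 1 protein-coding gene between them, stood at 60.1% and 30.9% at 3 h. Ifi207 had 1.82 in control, 6.49 at 3 h and 15.1 at 24 h. Ifi209 had 0.696 in control, 1.52 at 3 h and 8.63 at 24 h. For Ifi209 63.4% of the end words occur in other genes, so its values are uncertain. Oas2, an antiviral enzyme, was 6.82-fold above control at 24 h, and Cxcl10 was in the table with its higher mean at 3 h.

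**Figure D4:**
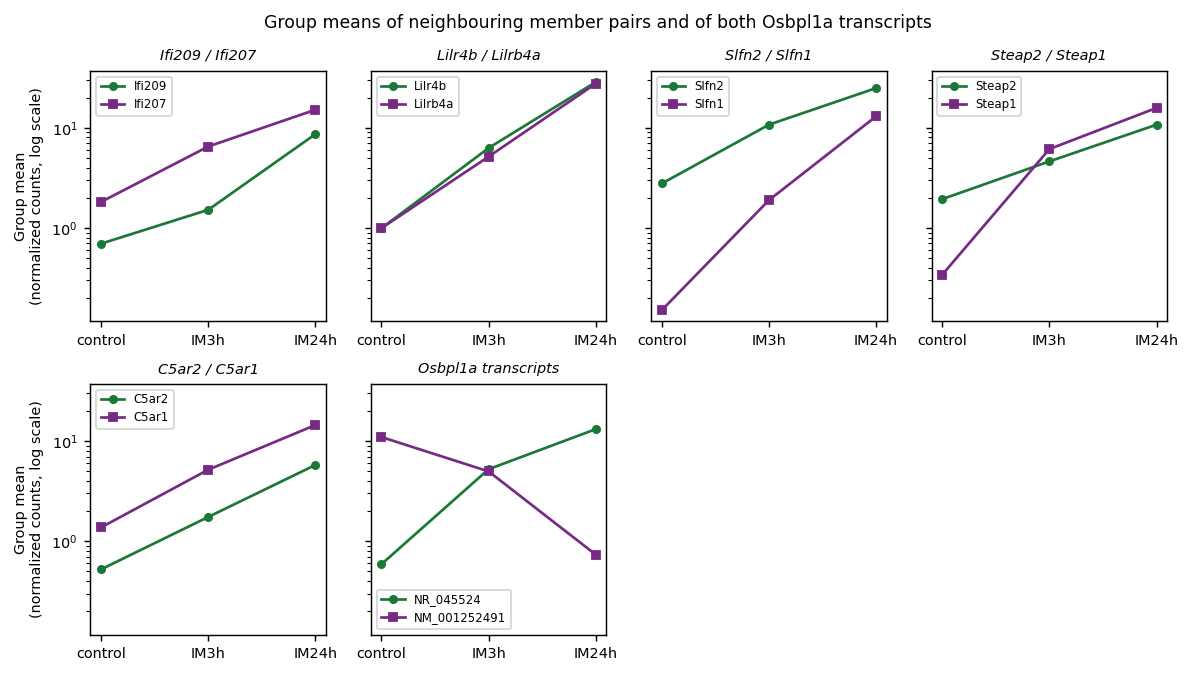
Authors' group means (y axis, normalized counts on a log scale) in control, IM3h and IM24h (x axis) for 5 pairs of member genes with at most 1 protein-coding gene between them in the genome and, in the last panel, for both Osbpl1a transcripts of the table. Lilr4b and Lilrb4a nearly coincide from 0.994 and 0.995 in control to 28.6 and 27.6 in IM24h, the other pairs start apart, and the Osbpl1a transcripts cross.

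Genes of lysosomes, endocytosis and granules had covered the smallest median share at 3 h (35.7%), with 6 members of 17 listed, a median log2 ratio of 1.11 at 3 h and of 3.60 at 24 h, and control means of at least 1 in all 6. Ctss, cathepsin S, which processes antigen in phagocytes, had means of 7.47 in control, 15.01 at 3 h and 106 at 24 h, 26.3% covered at 3 h. Lgals3, galectin-3 of macrophages, had 10.02 in control, 21.96 at 3 h and 92.2 at 24 h. Srgn, the core protein of secretory granules, had 2.71 in control, 12.999 at 3 h and 47.6 at 24 h. Srgn was the exception of the list with 54.7% covered at 3 h. Rab7b, a GTPase of late endosomes, had 4.13 in control, 8.70 at 3 h and 32.9 at 24 h. Dab2, a clathrin adaptor, had 1.84 in control, 5.50 at 3 h and 36.5 at 24 h. Ctla2a, a cysteine protease inhibitor, had 2.53 in control, 5.36 at 3 h and 26.3 at 24 h. These 3 had covered 35.97%, 36.7% and 32.1% at 3 h. A second Lgals3 transcript, in the table of gliosis genes, had the same order at 4.86, 8.49 and 35.7, with a first step under 2-fold. The further listed genes, Ctsb, Lgals1 and Lamp1, were in the tables without being members.

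Metabolism and transport were represented by 12 members of 26 listed genes, and 7 of the 12 had covered over 50% of the log2 distance at 3 h. Plin2, the coat protein of lipid droplets, had means of 23.2 in control, 47.8 at 3 h and 143 at 24 h. Ctps, which makes CTP for nucleic acid synthesis, had 17.9 in control, 53.3 at 3 h and 108.3 at 24 h. Xdh, which makes uric acid from purines, had 8.54 in control, 17.1 at 3 h and 40.04 at 24 h. These 3 and Angptl4 had the largest totals of the list, with folds of 6.17, 6.05, 4.69 and 13.3 at 24 h. Steap2 lies next to Steap1 and was 5.53-fold above control at 24 h, beside 46.2-fold for Steap1. The zinc and iron importer Slc39a14 was 5.04-fold above control at 24 h, the lactate transporter Slc16a3 8.45-fold and Slc16a6 4.91-fold. Dhdds, of dolichol synthesis, and Apobr were 9.32-fold and 8.15-fold above control.

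Osbpl1a was the 1 member gene whose transcripts in the table went opposite ways. The member transcript NR_045524 had 0.590 in control, 5.23 at 3 h and 13.1 at 24 h, whereas NM_001252491 had 11.0, 4.97 and 0.734. The sum of these 2 transcripts was thus not ordered as the member was, and how reads were divided between them is not given in the sources used here. Of the end words of NR_045524, 100% also occur among 11 other transcripts of the gene, so reads could be shared with these.

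RNA processing, noncoding RNA and ribosome formation held 10 members of 27 listed genes, with median log2 ratios of 1.28 and 2.89. Hnrnpa2b1, which binds RNA in splicing and transport, had means of 14.7 in control, 36.6 at 3 h and 92.2 at 24 h. Rnps1, a splicing activator of the exon junction complex, had 8.32 in control, 19.05 at 3 h and 49.8 at 24 h. Tardbp, a repressor of cryptic exons, had 4.07 in control, 9.39 at 3 h and 21.9 at 24 h. Their folds at 24 h were close to each other, 6.26, 5.98 and 5.37. However, RefSeq holds 4, 4 and 9 curated transcripts of these genes, and only 1 of each is listed. Of the end words of these transcripts, 58.1%, 100% and 100% also occur in other transcripts of the same gene. The folds are thus those of single transcripts, and the change of the whole gene was not measured. Gas5, a noncoding host of small nucleolar RNAs, had 4.01 in control, 9.99 at 3 h and 35.2 at 24 h. Ipo7, an import receptor for ribosomal proteins, had 5.66 in control, 13.1 at 3 h and 26.2 at 24 h. Snora81, a small nucleolar RNA, was 71.2-fold above control at 24 h with a second step of 17.8-fold, but all of its 50-base words also lie in Eif4a2, its host gene, so reads of either could be counted for it. Guf1, a mitochondrial translation factor, was 29.97-fold and Mrto4, of ribosome assembly, 5.95-fold above control. The control mean of Guf1 was 0.348, and with 1 added to every mean it was 8.48-fold above control. It is given by 1 of 2 curated transcripts, and 100% of its end words occur in 5 other transcripts of the gene. For Mrto4 15.7% of the end words occur in other genes.

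Regulators of transcription gave 9 members of 26 listed genes, with median log2 ratios of 1.20 and 2.48. Pogk, a nuclear protein with a KRAB domain, had means of 2.39 in control, 4.89 at 3 h and 17.3 at 24 h. Snai1, a repressor known from the epithelial to mesenchymal transition, had 2.35 in control, 5.39 at 3 h and 12.5 at 24 h. Hmga2, a chromatin protein of growing and mesenchymal cells, was 29.5-fold above control at 24 h from a control mean of 0.417. Rbpj, the DNA-binding partner of Notch, was 5.47-fold, Nfkbie, an inhibitor of NF-kB, 4.81-fold and Klf10, a target of TGF-beta signalling, 5.59-fold above control. Cited1 and Ier5l were 11.5-fold and 4.64-fold above control.

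Genes of muscle and cytoskeleton gave 4 members of 20 listed genes, with median log2 ratios of 1.15 and 2.28. Flnc, filamin C of muscle, had means of 14.2 in control, 29.2 at 3 h and 64.6 at 24 h, and its second transcript in the table of gliosis genes had 42.2, 81.2 and 193, with a fold of 4.56 at 24 h for both. Fhl3, a LIM protein of muscle, had 3.92 in control, 8.94 at 3 h and 20.3 at 24 h. Ankrd1, a cardiac ankyrin repeat protein that responds to mechanical strain in striated muscle, had 0.592 in control, 1.57 at 3 h and 15.2 at 24 h, with 25.7-fold the one large ratio of the list. Myo9b, an unconventional myosin, was 4.33-fold above control, and Nexn was listed with a lower mean at 3 h than in control.

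Among secreted, matrix and vascular genes there were 8 members of 20 listed, 6 of which had control means under 1. Lrg1, a secreted leucine-rich glycoprotein of the acute phase, had means of 2.16 in control, 7.81 at 3 h and 48.3 at 24 h. Chrdl2, a secreted binder of bone morphogenetic proteins, had 0.515 in control, 3.09 at 3 h and 42.5 at 24 h, 82.5-fold above control at 24 h with 40.6% of the log2 distance covered at 3 h. Rasip1, needed for the lumen of blood vessels, had 2.33 in control, 6.30 at 3 h and 19.4 at 24 h. F10, the zymogen of coagulation factor Xa, was 36.7-fold above control at 24 h and Grrp1 23.5-fold. Sulf1, an extracellular heparan sulfatase, was 5.79-fold and Plppr2 6.02-fold above control. Insl3, a peptide hormone, was 4.99-fold above control, but 78.7% of its end words also occur in Jak3, so reads of either gene could be counted for it. Sulf2 was in the tables with another order.

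Genes of the endoplasmic reticulum, autophagy and vesicles included the member with the largest total. Rtn4, a reticulon that shapes this organelle and, in nerve, limits axon growth, had means of 19.1 in control, 63.3 at 3 h and 191 at 24 h, about equal steps with 51.9% covered at 3 h. RefSeq holds 5 curated transcripts of Rtn4, and only 1 is listed. Of the end words of the listed one, 100% also occur in 4 other transcripts of the gene. The Rtn4 values are thus of a single transcript, and the change of the whole gene was not measured. Vmp1, a membrane protein needed to form autophagosomes, had 1.45 in control, 23.3 at 3 h and 126 at 24 h. It was 16.01-fold above control at 3 h and 86.4-fold at 24 h, the largest 24 h fold among members with a control mean of at least 1. These values are of 1 transcript, the only one listed of 4 curated for Vmp1. Its end sequence was not examined, so the change of the whole gene is unknown. Ssr1, a subunit of the translocon-associated complex, had 5.89 in control, 11.8 at 3 h and 32.9 at 24 h. Epn2, an epsin of clathrin-coated pits, and Magt1, of N-glycosylation and magnesium transport, were 4.87-fold and 10.1-fold above control, so that all 5 listed genes in the tables, of 18, were members.

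Cell survival, death and division kinases gave 3 members of 18 listed genes. Bcl2a1b, an anti-apoptotic BCL2 relative of myeloid cells, had means of 1.20 in control, 5.82 at 3 h and 34.2 at 24 h, although 86.9% of its end words are shared with its copies Bcl2a1a and Bcl2a1d. Nek6, a mitotic kinase, had 2.02 in control, 8.62 at 3 h and 27.6 at 24 h. Ripk3, the kinase of necroptosis, had 0.332 in control, 0.991 at 3 h and 3.64 at 24 h. Birc3 was in the table with its higher mean at 3 h. Outside all lists stood Gimap4, a lymphocyte GTPase, and the noncoding Gt(ROSA)26Sor and Gm32856, at 4.90, 5.52 and 4.24-fold above control at 24 h.

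How far single transcripts can be read was examined from their sequence, since the library kit reads transcript ends. In 13 genes more than 1 transcript was a member, 27 transcripts in all, and in 10 of these genes the log2 ratios of the transcripts were equal within 0.01 at both times. Exceptions were Clec4n, Rbpj and Tmem173. Of 103 member transcripts found in the GENCODE M21 transcripts, 85 shared no 50-base word of their last 500 bases with another gene and 11 shared over 10% of them. Words shared with other transcripts of the same gene were over 50% in 59 and absent in 41. For 58 of the 101 genes RefSeq holds curated transcripts that neither table lists, and values of these were not analysed here.

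The table of gliosis genes, a list assembled by the study, holds 155 transcripts without such a selection by fold. In it 44 transcripts (28.4%) had the same order of means, of which 38, from 31 genes, were in that table alone. Their median ratio of IM24h to control was 2.79, and 29 of all 44 had a first step under 2-fold, 24 a second step under 2-fold and 15 both. Of the members Flnc, Lgals3 and Srgn stand in this table as well.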

How the data were processed

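ME RNA from 9 libraries was sequenced with a QuantSeq 3' FWD kit as single-end reads of 50 bases. Partek, without a version, is named in the submitters' processing notes. The aligner, genome build and normalization are not given in the sources used here. The deposited signal is 1 mean of normalized counts per transcript and group, made by the authors from 3 libraries, with a total. The tables also hold the authors' p-values, FDR, ratios and fold changes of 3 contrasts and a gene ontology table, none of which was used. The depth per library is therefore unknown.

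Ratios of the authors' means were computed without a pseudocount or filter, using Python 3.11.15, pandas 2.3.3, NumPy 2.4.6 and Matplotlib 3.10.9, and the scripts were tested on simulated data. The members and lists were chosen with earlier results of these data known. Each gene is given by its transcript with the largest total. All 3 means were to be named for members with a total of at least 90, for the 3 with the largest total in each list and for the 5 largest and 5 smallest shares at 3 h, and the other members by folds, ranges and counts. Some listed genes are counted but not reported here by name. A RefSeq gene table (GRCm38.p6) matched all 115 transcripts and 100 of 101 symbols, Tmem173 being Sting1 there. Alternatives were a pseudocount, a filter on totals, centring on the gliosis table, 1 transcript per gene and a larger step.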

Additional observations from a re-analysis of the deposited data

How the results depend on the processing

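Values here are medians over members of the log2 ratio of IM3h to control, of IM24h to control and of IM24h to IM3h, the median percent of the log2 distance covered at 3 h, and the number of transcripts with over 50% covered. They were 1.43, 3.38, 1.73, 47.1% and 42 as reported. A pseudocount of 1 gave 0.93, 2.59, 1.48, 41.6% and 22, and one of 0.5 gave 1.12, 2.86, 1.59, 44.0% and 30, which is by construction since many control means were under 1. Only transcripts with a total of at least 90 left 39 transcripts of 38 genes, with 1.58, 3.38, 1.80, 47.6% and 15. Centring each group on the gliosis table kept all 115 transcripts and 101 genes, with 1.29, 2.61, 1.11, 58.7% and 79. Taking 1 transcript per gene gave 1.43, 3.33, 1.72, 47.1% and 37. Steps of at least 3-fold left 34 transcripts of 29 genes. Leaving out each library could not be done without values per library. No paired analysis was possible because the deposited columns are group means and replicate numbers were given in accession order.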
